A study of Mus musculus with 12 samples.

Results

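Collagens are the fibres, sheets and anchors of the skin's connective tissue, and each is built from 3 chains encoded by genes named Col, a type number, a and a chain number. Here the collagen chain genes were taken as every gene symbol of that form with 10 or more counts over all libraries, and 44 of the 24062 genes counted in the files met this, with no symbol of that form left out. RNA came from wounds in the back skin of C57BL/6 mice whose diabetes was induced by streptozotocin, a toxin of the insulin-producing beta cells, and 12 mice gave 1 bulk RNA-seq library each. The mice fell into 4 groups of 3 by the treatment label: pre-MCS-01 and post-MCS-01, which name the mast cell stabilizer MCS-01 of the study's title, DSCG, the usual abbreviation of the mast cell stabilizer disodium cromoglycate, and blank. The labels do not say what pre and post refer to, nor the dose, the vehicle, the age or sex of the mice or the day of sampling, and no non-diabetic or unwounded skin is among these groups. Streptozotocin removes beta cells and so models insulin deficiency. Replicate numbers only name the mice, and p-values set the differences between groups against the spread between mice.

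Fibrillar collagens, chiefly types I, III and V in skin, form the load-bearing fibrils of the dermis and are laid down by fibroblasts during scar formation. Type IV forms the network of basement membranes, type VII anchors the epidermal basement membrane to the dermis, type VI forms beaded filaments around cells, and the fibril-associated collagens (FACIT) sit on the fibrils' surface. Transmembrane collagens span the cell membrane, as type XVII does in the hemidesmosomes that hold basal keratinocytes down. By these classes the 44 genes were 11 fibrillar, 6 type IV, 9 FACIT, 4 transmembrane, 6 type VI, 3 network-forming (types VIII and X), 2 multiplexins (types XV and XVIII, whose ends can be cut off as endostatin-like fragments), Col7a1 alone, and 2 others (Col26a1 and Col28a1). A filter on low counts kept 43 of them among 16267 genes tested. Col9a1, a type IX chain of cartilage, had 13 counts in all and was not tested.

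The windows just upstream of 4 of these genes are shown because the 2 fibrillar genes Col3a1 and Col5a1 and the type VI gene Col6a3 were all high in blank replicate 1 and pre-MCS-01 replicate 3 and lowest in pre-MCS-01 replicate 2, while the transmembrane gene Col23a1 was highest in post-MCS-01 replicate 1. Each is the 150 bases before the RefSeq start of the gene (build GRCm38.p6), read 5′ to 3′ on the gene's strand, and none overlaps an annotated exon. Capitals mark 3 short motifs, each searched on both strands, that is also as its reverse complement. The first, TATAAA, is the core of the element that many tissue-specific promoters carry close to their start. The second, CCAAT, is a common upstream element of collagen and other promoters. The third, GGGCGG, is the GC-rich element known as a GC box.
Col3a1, chr1:45311388-45311537, plus strand: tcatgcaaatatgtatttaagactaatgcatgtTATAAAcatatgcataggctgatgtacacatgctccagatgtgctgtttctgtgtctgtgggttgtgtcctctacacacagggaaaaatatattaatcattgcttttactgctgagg
Col5a1, chr2:27886275-27886424, plus strand: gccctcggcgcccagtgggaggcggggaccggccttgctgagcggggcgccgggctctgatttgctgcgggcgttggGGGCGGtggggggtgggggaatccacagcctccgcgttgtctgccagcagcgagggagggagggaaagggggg
Col6a3, chr1:90843972-90844121, minus strand: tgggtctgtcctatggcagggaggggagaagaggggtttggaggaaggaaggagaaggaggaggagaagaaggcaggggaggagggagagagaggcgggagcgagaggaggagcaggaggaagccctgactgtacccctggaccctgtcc
Col23a1, chr11:51289770-51289919, plus strand: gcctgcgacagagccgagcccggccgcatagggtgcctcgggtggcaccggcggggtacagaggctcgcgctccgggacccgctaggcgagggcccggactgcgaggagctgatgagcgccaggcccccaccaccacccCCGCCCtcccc
The Col3a1 window held the first motif, the Col5a1 and Col23a1 windows the third, and the Col6a3 window none of the 3. In the Col3a1 window the match lay nearer the upstream end than the start of the gene. The RefSeq table gave 38 windows for collagen genes, Col6a2, Col9a1 and Col18a1 having more than 1. Of these 38, 4 held the first against 7.57% of all 32851 windows of this length, 8 held the second against 24.5%, and 19 held the third against 28.6%. A match is only a match of letters. The members without a window were Col1a1, Col2a1, Col4a3, Col5a2, Col9a3, Col12a1, Col14a1, Col22a1 and Col26a1.

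Gene counts per library ran from 3.84e+06 in blank replicate 3 to 5.05e+07 in blank replicate 1, and the 11 other than blank replicate 3 held at least 3.77e+07. Levels are given as CPM, a gene's counts divided by its library's TMM-scaled total and multiplied by 1000000. Markers of skin were present: the 9 fibroblast markers listed were all counted and summed to 1055 to 2832 CPM, and 6 markers of basal keratinocytes to 10769.7 to 24193. A sum of 6 hair follicle markers (among them Tchh and Krt71) stood at 28.6 to 82.0 CPM in post-MCS-01 and at 6405 to 18958 in blank, 1874 to 38984 in DSCG and 11968 to 28616 in pre-MCS-01. Of a chondrocyte list, 7 of 8 genes were counted and its summed level was mostly Sox9, which hair follicles also express. Of the others, Acan (aggrecan) stood at 0.524 to 5.20 CPM and Comp at 0.568 to 7.09, while Matn3, Hapln1, Matn1 and Lect1 (chondromodulin) stayed under 1 CPM in every library. Schwann cell markers summed to 115 to 119 CPM in blank, 89.5 to 196 in DSCG, 69.1 to 108 in pre-MCS-01 and 114 to 159 in post-MCS-01, and 3 of 4 macrophage markers counted to 769.8 to 949.8 CPM in blank, 538 to 1184 in DSCG, 556 to 784 in pre-MCS-01 and 753 to 1390.0 in post-MCS-01. In bulk RNA, fewer cells of a type and less collagen RNA per cell cannot be told apart.

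Collagen RNA took up a large and very uneven share of each library. It made up 7.89%, 4.71% and 2.01% of the gene counts in blank, 5.87%, 2.07% and 3.36% in DSCG, 1.53%, 1.25% and 7.38% in pre-MCS-01, and 4.48%, 2.28% and 5.68% in post-MCS-01 (replicates 1 to 3 in each, as throughout). The lowest and the second highest share belonged to mice of the same group, pre-MCS-01. Each group spanned at least a 2.27-fold range in summed collagen CPM, and pre-MCS-01 spanned 5.45-fold.

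Col1a1, Col3a1 and Col1a2 supplied 38.0%, 24.7% and 20.8% of all collagen counts. Per kilobase of the longest annotated transcript, the mean level over the 12 libraries was 2556 CPM for Col1a1, 1767 for Col3a1 and 1559 for Col1a2. Next in level per kilobase came the type VI chains Col6a1 (177) and Col6a2 (165), Col17a1 (122), and the type V chains Col5a1 (101) and Col5a2 (84.1). The FACIT gene Col16a1 (62.9), Col4a1 (62.7) and the multiplexin Col18a1 (61.8) lay close together at ranks 9 to 11. At the other end, Col2a1, the main fibrillar collagen of cartilage (named here after its values were seen), was at 0.0629 CPM per kilobase, Col10a1, of hypertrophic cartilage, at 0.0577 and Col9a1 at 0.00658. The order within each of these close sets is not separated from the spread between mice.

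**Figure D1:**
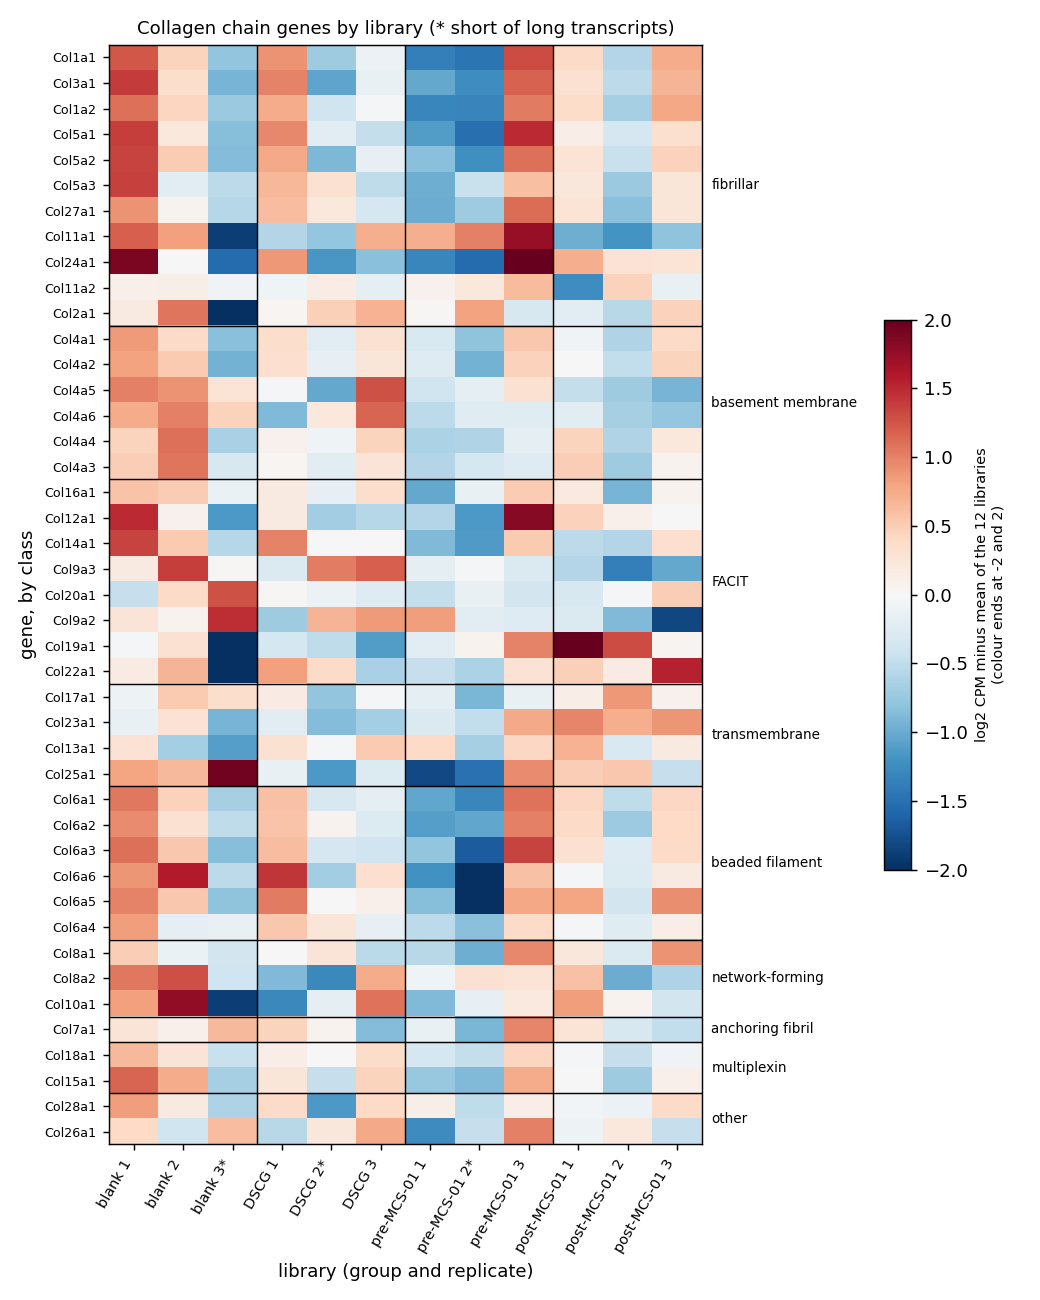
Heat map of the 43 collagen chain genes tested (rows, by class) in the 12 libraries (columns, by group). The colour is log2 CPM minus the gene's mean over the 12 libraries. Blank replicates 1 and 2 and pre-MCS-01 replicate 3 are above 0 in 35 or more rows. Pre-MCS-01 replicates 1 and 2, blank replicate 3 and post-MCS-01 replicate 2 are below 0 in 33 or more.

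None of the 43 collagen chain genes differed between any 2 groups at an adjusted p under 0.05 in edgeR's quasi-likelihood test, with Benjamini-Hochberg adjustment over all 16267 genes, and none did in the joint test of the 4 groups. The same fit called 0% of all genes in each of the 3 comparisons against blank, in pre-MCS-01 against DSCG and in the joint test, 0.824% in pre-MCS-01 against post-MCS-01 and 1.06% in post-MCS-01 against DSCG. At an unadjusted p under 0.05, 3 collagen genes stood out in pre-MCS-01 against blank (7.24% of all genes did), 7 in post-MCS-01 against blank (9.35%), 0 in DSCG against blank (1.03%), 2 in pre-MCS-01 against post-MCS-01 (10.2%), 6 in post-MCS-01 against DSCG (11.3%) and 0 in pre-MCS-01 against DSCG (2.36%). In the joint test it was 5 (8.42%). As shares of the 43, the 7, 6 and 5 lie above the share of all genes and the other counts below it, which is a description with no test.

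Other fits of the same counts called a few members. DESeq2 called Col9a3 in post-MCS-01 against blank, Col11a1 in pre-MCS-01 against post-MCS-01, and Col23a1 and Col9a3 in both post-MCS-01 against DSCG and the joint test, where it called 2.52%, 2.63%, 3.81% and 3.49% of all genes. A fit of the 2 groups alone called Col4a5 in post-MCS-01 against blank (1.61% of all genes) and Col11a1 in pre-MCS-01 against post-MCS-01 (1.25%). Without DSCG replicate 1, edgeR called Col9a3 in post-MCS-01 against DSCG (3.67% of all genes). With limma-voom and library quality weights, 12 collagen genes were called in pre-MCS-01 against blank (15.3%), 5 in post-MCS-01 against blank (5.08%), 15 in pre-MCS-01 against post-MCS-01 (23.5%) and 10 in the joint test (13.5%). With 3 mice against 3, an exact permutation test of a single gene cannot give a p below 0.1.

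Against blank, most collagen genes had a log2 difference below 0: 35 of 43 for pre-MCS-01, with a median of -0.44, 36 for post-MCS-01 (-0.38) and 39 for DSCG (-0.33). Of all genes tested, 45.9%, 50.8% and 50.2% lay below 0 in these comparisons, with medians of 0.04, -0.01 and 0.00. The 3 comparisons share the blank mice, and the medians rested on 1 of them: without blank replicate 1 they were -0.07, 0.07 and 0.03. Between treatments the median was -0.11 for pre-MCS-01 against post-MCS-01 (25 of 43 below 0), -0.06 for post-MCS-01 against DSCG (24) and -0.21 for pre-MCS-01 against DSCG (30), against 47.5%, 50.6% and 45.4% of all genes below 0. Scaling by total counts in place of TMM shifts a comparison by the mean change over its libraries, and not every gene by exactly that amount. The mean shift was 0.05 for post-MCS-01 against DSCG, where the collagen median became 0.01, and -0.10 for pre-MCS-01 against post-MCS-01. Pre-MCS-01 replicate 3 bore on the size: without it the medians were -1.12 for pre-MCS-01 against blank, -0.82 against post-MCS-01 and -0.84 against DSCG.

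**Figure D2:**
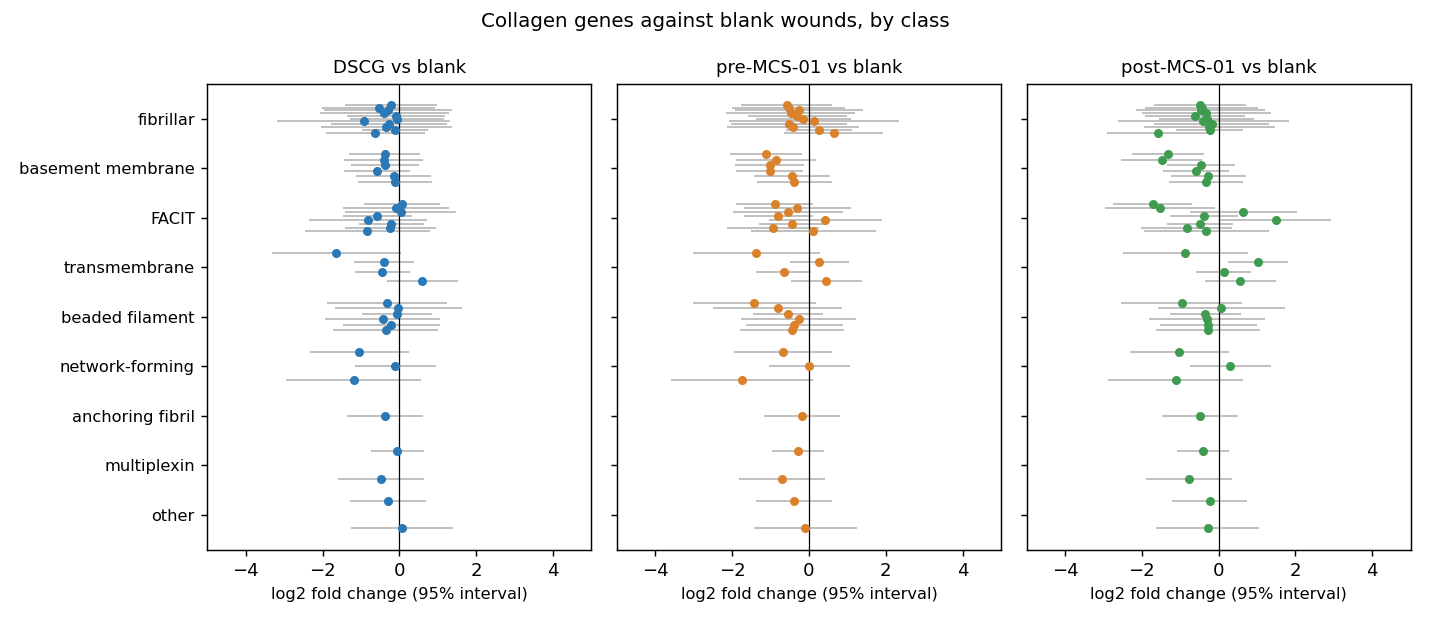
Log2 difference from blank (x) of each of the 43 collagen chain genes (points, by class) in DSCG, pre-MCS-01 and post-MCS-01. Bars are 95% intervals from the edgeR fit; most points in the 3 panels lie left of 0, and no gene passed an adjusted p of 0.05.

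The major fibrillar chains varied widely between mice of a group. Col1a1 (chr11:94936224-94953042, plus strand, GRCm38), the more abundant chain of type I collagen, stood at 29623, 16960.0 and 7255 CPM in blank, 23300.1, 7634 and 11474 in DSCG, 4834, 4529 and 30879 in pre-MCS-01 and 16314, 8263 and 20842 in post-MCS-01 libraries. Blank replicate 1 and pre-MCS-01 replicate 3 were highest, pre-MCS-01 replicates 1 and 2 lowest, and all groups overlapped. The group means were 17946 ± 11217 CPM (SD, n = 3) for blank, 14136 ± 8165 for DSCG, 13414 ± 15126 for pre-MCS-01 and 15139.8 ± 6372 for post-MCS-01. The log2 difference from blank was -0.42 ± 0.78 (SE) for pre-MCS-01, with a 95% interval of -2.13 to 1.29 and an adjusted p of 0.903 (edgeR), so that the interval holds large differences of either sign.

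Col3a1 (chr1:45311538-45349706, plus strand), the chain of type III collagen, which is prominent in early granulation tissue, stood at 21323, 10348 and 4275 CPM in blank, 16092, 3929.7 and 7368 in DSCG, 3982, 3448 and 18409.8 in pre-MCS-01 and 10086, 5677 and 13075 in post-MCS-01 libraries. Blank replicate 1 and pre-MCS-01 replicate 3 were again highest, and pre-MCS-01 replicate 2, DSCG replicate 2 and pre-MCS-01 replicate 1 lowest, over a 6.18-fold range. Its log2 differences from blank were -0.48 ± 0.76, -0.32 ± 0.76 and -0.39 ± 0.76 for pre-MCS-01, post-MCS-01 and DSCG. Without blank replicate 1 these were 0.20, 0.41 and 0.33, and those of Col1a1 were 0.11, 0.34 and 0.23, so the sign turned in all 6. Col5a1, which starts and limits fibril growth, ranged 8.02-fold over the 12 libraries, and Col5a2 5.93-fold.

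Among 12 ratios of chains computed, those within a type mostly varied less than the chains. Col1a1 over Col1a2, the pair that assembles into type I collagen, was 1.41 to 2.11 in the 12 libraries, a 1.50-fold range where the chains themselves ranged 6.82- and 5.36-fold. Type III over type I (Col3a1 over Col1a1) was 0.515 to 0.824 in CPM, highest in pre-MCS-01 replicate 1 and lowest in DSCG replicate 2. The type V ratio Col5a1 over Col5a2 ranged 2.01-fold. The epidermal collagens did not hold such a ratio to type I: Col17a1 over Col1a1 ranged 7.61-fold and Col7a1 over Col1a1 6.28-fold.

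**Figure D3:**
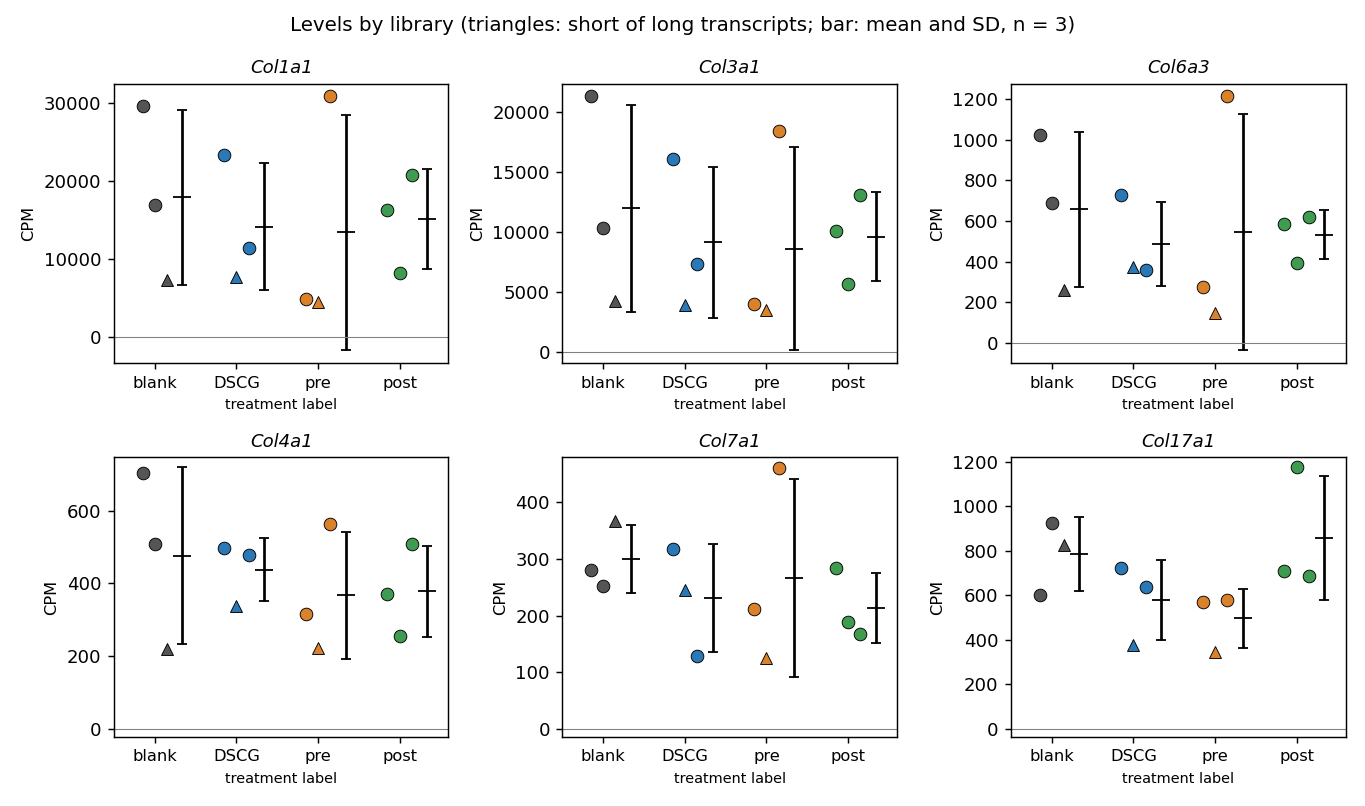
CPM of named collagen chain genes in each library (points, by group), with the group mean and SD (bars; n = 3). The y axes are linear and differ between panels; bars that reach below 0 show only that the SD exceeds the mean, and the groups overlap in the panels of Col1a1 and Col3a1.

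Col11a1 (chr3:114030540-114220718, plus strand) was the fibrillar gene with the smallest p. Its chain joins type V chains in minor fibrils. It stood at 20.4, 15.6 and 2.36 CPM in blank, 5.90, 5.19 and 14.7 in DSCG, 14.8, 17.8 and 29.8 in pre-MCS-01 and 4.46, 3.84 and 5.07 in post-MCS-01 libraries. All 3 pre-MCS-01 libraries lay above all 3 post-MCS-01 libraries, and blank was spread over both. The log2 difference of pre-MCS-01 over post-MCS-01 was 2.22 ± 0.61 (95% interval 0.88 to 3.56, adjusted p = 0.182, edgeR). DESeq2 gave an adjusted p of 0.0114, the fit of the 2 groups alone 0.0224. Post-MCS-01 against blank gave -1.57 ± 0.60 (adjusted p = 0.419). The hair follicle sum given above is also low in all 3 post-MCS-01 libraries, and its part in the difference was not tested.

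Of the fibrillar genes as a group, 3 of 11 had log2 differences above 0 in pre-MCS-01 against blank, 0 in post-MCS-01 and 0 in DSCG, with medians of -0.30, -0.39 and -0.30. Without blank replicate 1 the medians were 0.20, 0.29 and 0.23, all of the opposite sign. Their summed level was 69874, 38649 and 16575 CPM in blank, 53758, 18076 and 26965 in DSCG, 12406, 11452 and 67208 in pre-MCS-01 and 37169, 19462 and 47844 in post-MCS-01 libraries. The sum ranged 6.10-fold over the mice, while the fibroblast marker sum, in the same library order, was 2832, 2403 and 1579 CPM in blank, 2104, 1642 and 1609 in DSCG, 1055, 1377 and 1881 in pre-MCS-01 and 2527, 1116 and 2830.4 in post-MCS-01 libraries. Blank replicate 1 was high in both sums and pre-MCS-01 replicates 1 and 2 low in both, and pre-MCS-01 replicate 3 had the second highest fibrillar sum with the sixth highest fibroblast sum. The sum of 5 myofibroblast and smooth muscle markers was 2398, 1402 and 878 CPM in blank, 1465, 943 and 1306 in DSCG, 747, 1033 and 1611 in pre-MCS-01 and 1177, 739.7 and 1337 in post-MCS-01 libraries, highest in blank replicate 1 and next in pre-MCS-01 replicate 3. Postn was the largest member of that sum, at 1946 CPM in blank replicate 1 and 1331 in pre-MCS-01 replicate 3. The other members did not follow it in pre-MCS-01 replicate 3. There Cnn1 was at its lowest (2.37 CPM), and Acta2 (166), Tagln (85.5) and Myh11 (26.2) were below their medians over the 12 libraries. In blank replicate 1 each of them was above its median. The part of fibroblast and myofibroblast content in the collagen values was not tested. Other fibrillar members reached from 0.321 CPM (Col2a1) to 184 CPM (Col5a3) on average.

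Type IV chains come from genes lying head to head in pairs. Col4a1 and Col4a2, the chains of nearly every basement membrane, start beside each other at chr8:11198423-11312826 and chr8:11312805-11449287 and had the tightest ratio of the 12, 1.16 to 1.40 in 12 libraries (1.21-fold). Col4a1 stood at 703, 508 and 218 CPM in blank, 497, 337 and 478 in DSCG, 315, 223 and 562 in pre-MCS-01 and 369.7, 255 and 508 in post-MCS-01 libraries. Blank replicate 3 and pre-MCS-01 replicate 2 were lowest, and the groups overlapped. Its log2 difference from blank was -0.38 ± 0.44 for pre-MCS-01 and -0.34 ± 0.44 for post-MCS-01 (adjusted p = 0.837 and 0.926, edgeR). Col4a2 gave -0.44 and -0.28.

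The minor type IV chains were far lower and had smaller p-values. Col4a5 (chrX:141475385-141689234, plus strand), found in epidermal and renal basement membranes, stood at 14.1, 13.0 and 8.38 CPM in blank, 6.74, 3.41 and 16.9 in DSCG, 5.25, 6.11 and 8.56 in pre-MCS-01 and 4.99, 4.22 and 3.63 in post-MCS-01 libraries. The 3 blank libraries lay above the 3 post-MCS-01 libraries without overlap, and DSCG spanned both. Post-MCS-01 against blank gave -1.49 ± 0.48 (95% interval -2.54 to -0.43, adjusted p = 0.311, edgeR; 0.0374 in a fit of the 2 groups alone). Post-MCS-01 against DSCG gave -1.08 ± 0.48, and -0.25 without DSCG replicate 3.

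Col4a6, its neighbour on the X chromosome (chrX:141165403-141474076, minus strand), stood at 7.04, 8.50 and 5.76 CPM in blank, 2.25, 4.83 and 9.42 in DSCG, 2.91, 3.52 and 3.52 in pre-MCS-01 and 3.58, 2.62 and 2.43 in post-MCS-01 libraries. Every blank library was above every pre-MCS-01 and every post-MCS-01 library. The log2 difference from blank was -1.32 ± 0.43 for post-MCS-01 (adjusted p = 0.310) and -1.11 ± 0.43 for pre-MCS-01 (0.669, edgeR). The Col4a5 to Col4a6 ratio was loose, 0.705 to 2.99, with both extremes in DSCG.

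Col4a3 and Col4a4, another head-to-head pair at chr1:82586921-82722059 and chr1:82448423-82586849, held a ratio of 0.463 to 0.667. Col4a4 stood at 3.43, 5.38 and 1.57 CPM in blank, 2.66, 2.35 and 3.43 in DSCG, 1.59, 1.62 and 2.19 in pre-MCS-01 and 3.43, 1.63 and 2.89 in post-MCS-01 libraries. Blank replicate 3, the shallowest library, was the lowest of the 12, and blank and pre-MCS-01 overlapped through it. The log2 difference of pre-MCS-01 from blank was -1.02 ± 0.41 for Col4a4 and -1.03 ± 0.40 for Col4a3, each with an adjusted p of 0.669 (edgeR). All 6 type IV genes lay below 0 in each of the 3 comparisons against blank, with medians of -0.94 (pre-MCS-01), -0.52 (post-MCS-01) and -0.38 (DSCG). That held with each of the 3 scalings tried and with the length offset described below. Scaling by total counts shifts these 3 comparisons by only -0.09, 0.01 and -0.03 on average, and none of these signs changed. Without blank replicate 1, 6, 4 and 4 of the 6 lay below 0, with medians of -0.92, -0.56 and -0.35. Endothelial and pericyte markers, 6 in number, summed to 123 to 335 CPM in blank, 179 to 298 in DSCG, 91.5 to 273 in pre-MCS-01 and 168 to 283 in post-MCS-01. The 4 adipocyte markers summed to 149 to 238 CPM in blank, 111 to 134 in DSCG, 18.4 to 72.9 in pre-MCS-01 and 28.8 to 97.5 in post-MCS-01. In this sum blank lay above each of the other groups without overlap. Against DSCG, among the single markers, that held for Cidec alone. Adipoq, Plin1 and Lep overlapped, with lowest blank values of 33.5, 31.5 and 5.24 CPM and highest DSCG values of 34.7, 42.8 and 7.05. Endothelium, pericytes and adipocytes all make basement membrane, and their part in these values was not tested.

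Of the FACIT genes, Col16a1 and Col12a1 had the highest mean CPM. Col12a1 (chr9:79598991-79718831, minus strand), which bridges fibrils in tissues under tension, stood at 672, 255 and 108 CPM in blank, 273, 148 and 162 in DSCG, 160.0, 109 and 851 in pre-MCS-01 and 329.9, 257 and 242 in post-MCS-01 libraries. Pre-MCS-01 held both the highest value and 2 of the lower ones, and the groups overlapped. Its log2 difference from blank was 0.11 ± 0.74 for pre-MCS-01 and -0.83 ± 0.75 for DSCG. Col14a1, also at fibril surfaces, gave -0.94 ± 0.54 for pre-MCS-01 and -0.84 ± 0.54 for post-MCS-01, and Col16a1 -0.44 ± 0.39 and -0.49 ± 0.39. None of these 3 passed the test.

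The FACIT genes with the smallest p were scarce. Col9a3 (chr2:180597790-180622189, plus strand), a type IX chain best known from cartilage, stood at 2.33, 5.43 and 2.10 CPM in blank, 1.67, 4.24 and 4.76 in DSCG, 1.79, 2.02 and 1.68 in pre-MCS-01 and 1.36, 0.768 and 0.987 in post-MCS-01 libraries. The 3 post-MCS-01 libraries were the 3 lowest of the 12, below DSCG, blank and pre-MCS-01 alike. Post-MCS-01 against DSCG gave -1.78 ± 0.46 (adjusted p = 0.125, edgeR) and against blank -1.71 ± 0.47 (0.208). Without DSCG replicate 1 the former was -2.11 with an adjusted p of 0.0187, and DESeq2 gave adjusted p-values of 0.00747 and 0.0222. Of the chondrocyte list, Acan stood at 4.25, 3.33 and 0.524 CPM in blank, 1.14, 5.19 and 4.91 in DSCG, 2.64, 3.61 and 5.20 in pre-MCS-01 and 0.605, 0.600 and 1.54 in post-MCS-01 libraries. It was low in all 3 post-MCS-01 libraries, as in blank replicate 3 and DSCG replicate 1, and above them in all 3 pre-MCS-01 libraries. Comp stood at 3.74, 4.47 and 5.50 CPM in blank, 3.34, 6.81 and 7.09 in DSCG, 1.96, 0.568 and 1.86 in pre-MCS-01 and 2.22, 1.61 and 2.94 in post-MCS-01 libraries, while Matn1 and Lect1 were at or near 0 in every library. Sox9 stood at 182, 244 and 139 CPM in blank, 39.3, 160.0 and 226 in DSCG, 97.4, 101 and 84.5 in pre-MCS-01 and 97.3, 33.9 and 50.9 in post-MCS-01 libraries. It was lowest in post-MCS-01 replicate 2 and DSCG replicate 1 and its groups overlapped, while the hair follicle sum was low in all 3 post-MCS-01 libraries. Their part in the difference was not tested.

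Col9a2, its partner chain, stood at 0.647, 0.561 and 1.57 CPM in blank, 0.304, 0.879 and 0.995 in DSCG, 0.994, 0.455 and 0.437 in pre-MCS-01 and 0.428, 0.264 and 0.115 in post-MCS-01 libraries. Post-MCS-01 lay below every blank and every pre-MCS-01 library and overlapped DSCG through DSCG replicate 1. Its log2 difference was -1.53 ± 0.66 from blank (adjusted p = 0.493) and -1.44 ± 0.62 from DSCG (0.409, edgeR).

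Col19a1, a rare collagen of basement membrane zones, stood at 0.235, 0.312 and 0.00 CPM in blank, 0.177, 0.154 and 0.0847 in DSCG, 0.199, 0.256 and 0.529 in pre-MCS-01 and 1.16, 0.672 and 0.252 in post-MCS-01 libraries. A count of 0 in the shallow blank replicate 3 allows up to 0.782 CPM (unscaled), which is above the level in every other library but post-MCS-01 replicate 1. All 3 post-MCS-01 libraries lay above all 3 DSCG libraries. The log2 difference was 2.31 ± 0.65 (adjusted p = 0.158, edgeR). Col22a1 gave -1.19 ± 0.62 for pre-MCS-01 against post-MCS-01, at under 1 CPM in every library. Type XXII collagen is known from muscle and tendon junctions. The 6 skeletal muscle markers summed to 1865 to 2855 CPM in pre-MCS-01 and 2544 to 6441 in post-MCS-01, and their part was not tested.

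**Figure D4:**
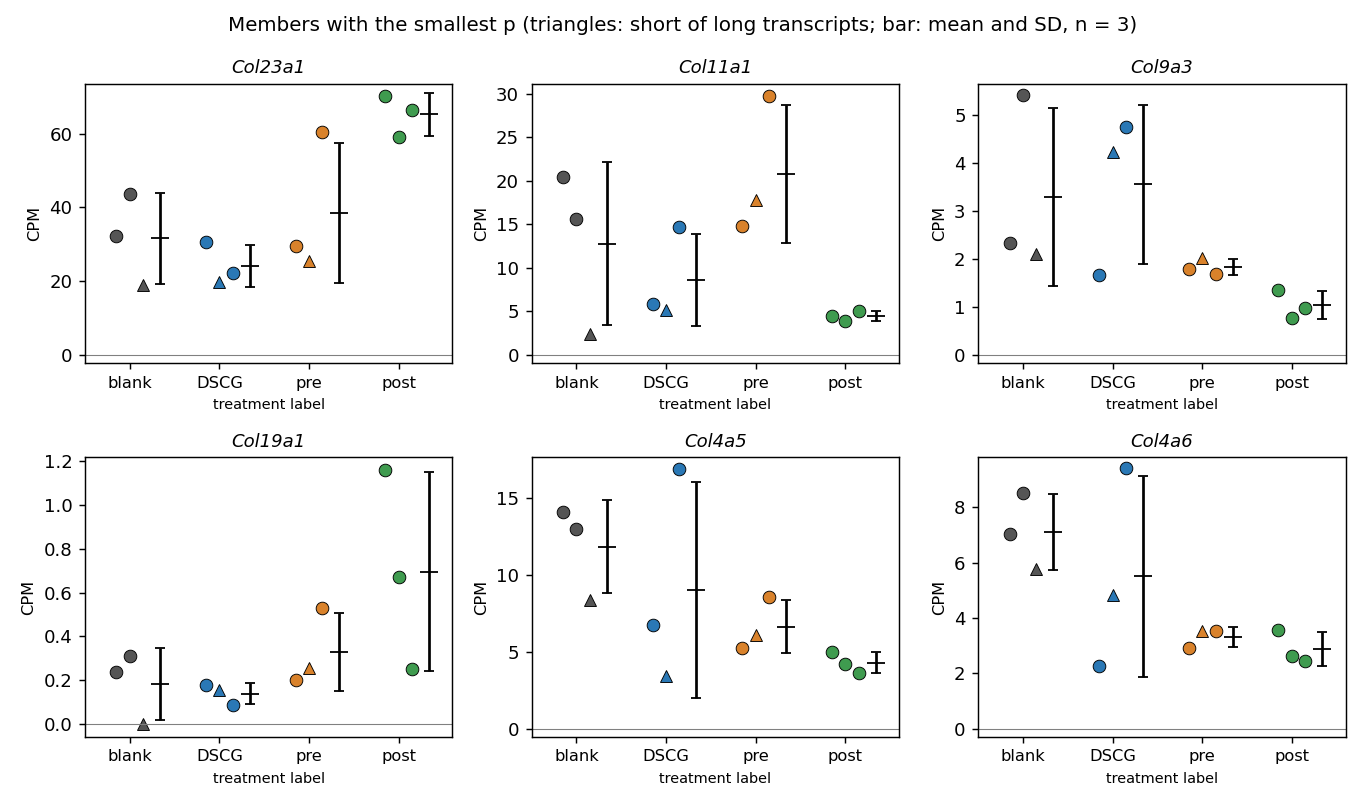
CPM in each library (points, by group; bars are the group mean and SD, n = 3) of collagen chain genes with the smallest p-values. The post-MCS-01 mean is highest for Col23a1 and lowest for Col9a3; in edgeR none of these genes passed an adjusted p of 0.05.

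The transmembrane collagens were ordered differently from the fibrillar ones. Col17a1 (chr19:47646344-47692094, minus strand), the hemidesmosome collagen of basal keratinocytes, stood at 601, 926 and 824 CPM in blank, 722, 374 and 637 in DSCG, 568, 343 and 578 in pre-MCS-01 and 709.8, 1178 and 686 in post-MCS-01 libraries. Post-MCS-01 replicate 2, low for type I collagen, was the highest of all, and pre-MCS-01 replicate 3, the highest for Col1a1, was within the others. Every post-MCS-01 library and every blank library was above every pre-MCS-01 library. The log2 difference of pre-MCS-01 was -0.79 ± 0.33 from post-MCS-01 (adjusted p = 0.447, edgeR) and -0.66 ± 0.33 from blank (0.703). The basal keratinocyte sum was 15337 to 24193 CPM in pre-MCS-01 and 14635 to 21795 in post-MCS-01, and the ranges overlapped. That sum is nearly all Krt5 and Krt14, whose means were higher in pre-MCS-01 (6300.2 and 12296 CPM) than in post-MCS-01 (5882 and 10479). Of its integrin members, Itga6 stood at 137, 65.3 and 145 CPM in pre-MCS-01 and 157, 275 and 162 in post-MCS-01, without overlap, and Itgb4 at 194, 159 and 228 and 227, 369 and 278. Trp63 stood at 211, 149.9 and 213 CPM in pre-MCS-01 and 204, 333 and 152 in post-MCS-01. Dst stood at 269.5, 141 and 263 CPM in pre-MCS-01 and 262, 382 and 238 in post-MCS-01. The groups overlapped for Itgb4, Trp63 and Dst. The part of these markers in the difference of Col17a1 was not tested.

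Col23a1 (chr11:51289920-51583918, plus strand), a membrane collagen known from epidermis, stood at 32.2, 43.6 and 18.9 CPM in blank, 30.5, 19.7 and 22.3 in DSCG, 29.4, 25.6 and 60.4 in pre-MCS-01 and 70.3, 59.0 and 66.3 in post-MCS-01 libraries. The post-MCS-01 libraries lay above all blank and all DSCG libraries, and pre-MCS-01 replicate 3 reached into their range. Post-MCS-01 over DSCG was 1.43 ± 0.36 on the log2 scale (95% interval 0.64 to 2.22, adjusted p = 0.108, edgeR; 0.00702 with DESeq2). Over blank it was 1.03 ± 0.36 (adjusted p = 0.348, edgeR). Leaving out each library in turn kept the difference from DSCG between 1.30 and 1.64. It was 1.39 with the length trend taken out, as described below, and 1.30 with the 3 libraries poor in long transcripts left out.

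Col13a1, of focal and neuromuscular contacts, gave 0.60 ± 0.42 for DSCG against blank at 1.83 to 6.50 CPM. Col25a1, a neuronal membrane collagen, was below all blank libraries in all DSCG libraries, at 0.583, 0.264 and 0.529 against 1.16, 1.04 and 2.62 CPM. Its log2 difference was -1.64 ± 0.76 (adjusted p = 0.999, edgeR). Post-MCS-01 also lay wholly below blank for Col25a1 (-0.87), and pre-MCS-01 gave -1.37 and overlapped blank. The highest of these blank values was in the shallow blank replicate 3. All 4 transmembrane genes lay below 0 in pre-MCS-01 against post-MCS-01, with a median of -0.63, and 3 of 4 above 0 in post-MCS-01 against blank (0.35). Both medians kept their sign with each of the 3 scalings. Scaling by total counts shifts these comparisons by only -0.10 and 0.01 on average, and neither sign changed.

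The 3 major type VI genes were high and low in much the same mice as Col1a1. Col6a1 (chr10:76708792-76726168, minus strand) stood at 1326, 873 and 403 CPM in blank, 956, 509.9 and 562 in DSCG, 309, 258 and 1359 in pre-MCS-01 and 849, 447 and 849 in post-MCS-01 libraries. As for Col1a1, pre-MCS-01 replicate 3 and blank replicate 1 were highest and pre-MCS-01 replicates 1 and 2 lowest. Col6a1 over Col6a2 was 0.673 to 1.02, while Col6a3, the long chain that completes the type VI molecule, over Col6a2 ranged 2.11-fold and was lowest in pre-MCS-01 replicate 2. The log2 differences of pre-MCS-01 from blank were -0.44 ± 0.62, -0.39 ± 0.58 and -0.27 ± 0.69 for the 3 genes. Col6a5 was highest in DSCG replicate 1 and Col6a6 in blank replicate 2 (both named after their values were seen). The 3 other type VI genes averaged 1.53 to 7.21 CPM, and none of the 6 had an unadjusted p under 0.05 in any pair.

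Col7a1 (chr9:108953586-108984875, plus strand), made largely by keratinocytes, stood at 280.2, 253 and 367 CPM in blank, 318, 246 and 128 in DSCG, 212, 124 and 461 in pre-MCS-01 and 284, 188 and 168 in post-MCS-01 libraries. Blank replicate 3, low for type I collagen, was the second highest, and the groups overlapped. The log2 difference from blank was -0.17 ± 0.45 for pre-MCS-01, -0.49 ± 0.45 for post-MCS-01 and -0.38 ± 0.45 for DSCG. Col18a1 and Col15a1, of vascular and epithelial basement membrane zones, gave -0.40 ± 0.31 and -0.76 ± 0.51 for post-MCS-01 against blank. Of the network-forming genes, Col8a1 over Col8a2 was the loosest of the 12 (8.01-fold), and Col8a2 gave -1.04 ± 0.59 for DSCG against blank. Col10a1, under 1 CPM throughout, gave -1.75 ± 0.84 for pre-MCS-01 against blank. Col26a1 and Col28a1 averaged 0.924 and 2.59 CPM, with log2 differences of -0.09 and -0.38 for pre-MCS-01 against blank.

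Collagen genes whose groups did not overlap were counted without a test. In pre-MCS-01 against blank 3 lay wholly lower (5.96% of all genes did) and 0 higher (8.41%), and in post-MCS-01 against blank 5 lower (9.45%) and 1 higher (8.92%). In DSCG against blank 1 lay lower (1.77%) and 0 higher (1.91%). Between treatments, the counts higher and lower were 4 and 1 for pre-MCS-01 against post-MCS-01 (10.7% and 7.01%), 2 and 3 for post-MCS-01 against DSCG (7.14% and 8.28%), and 2 and 2 for pre-MCS-01 against DSCG (2.53% and 2.59%).

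Collagen genes had a wide spread between mice of a group. Over the 22 collagen genes of at least 10 CPM, the median within-group SD was 0.777 on the log2 scale, against 0.340 over all 9954 genes of that level, whose upper quartile was 0.487. The class medians are over all 43 genes tested, scarce ones included, and so are not limited to that level. They were 0.976 for fibrillar genes, 0.926 for type VI, 0.826 for network-forming, 0.761 for FACIT, 0.589 for type IV and 0.518 for transmembrane genes. The remaining classes lay at 0.570 to 0.676.

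Collagen transcripts are long, and 3 libraries held fewer counts of long transcripts. The median exon length of the 43 genes was 7621 bases against 4158 for all genes tested, and 82.0% of the genes tested were shorter than that collagen median. Across 15521 genes with a length, Spearman's rho between exon length and a library's log2 deviation from the 12-library mean was -0.385 in pre-MCS-01 replicate 2, -0.330 in DSCG replicate 2 and -0.320 in blank replicate 3, and -0.0559 to 0.337 in the other 9. These are correlations across genes, which are not independent replicates. Within the 43 collagen genes, which are mostly long, rho was -0.367, -0.0216 and -0.159 in the same 3 libraries. In the other 9 it ran from -0.336 in DSCG replicate 3 and -0.327 in pre-MCS-01 replicate 1 to 0.461 in pre-MCS-01 replicate 3. Within the collagen genes the 3 libraries were thus not set apart from the rest.

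Collagen level and length trend coincided in part. The median deviation of the 43 genes was -0.70 in pre-MCS-01 replicate 2 (38 of 43 below 0), -0.62 in blank replicate 3 (34) and -0.20 in DSCG replicate 2 (28). With each library's length trend over all genes taken out, the medians were -0.57, -0.36 and 0.01. Other libraries were low with no such trend: pre-MCS-01 replicate 1 was at -0.58 (37 of 43 below 0, rho of -0.0227) and -0.61 once the trend was out, and post-MCS-01 replicate 2 at -0.47 (33 below 0, rho of 0.236) and -0.57. At the top, blank replicate 1 moved from 0.83 to 0.72 and pre-MCS-01 replicate 3 from 0.60 to 0.46.

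By class, fibrillar genes deviated by a median of -1.22 in pre-MCS-01 replicate 2, -0.86 in blank replicate 3 and -0.40 in DSCG replicate 2, and by -0.91, -0.60 and -0.10 without the length trend. Type IV genes deviated by -0.48, -0.49 and -0.18, and by -0.15, -0.19 and 0.04 without it. FACIT genes deviated by -0.18, -0.35 and -0.06, and by -0.19, -0.15 and 0.10. Transmembrane genes deviated by -0.79, -0.28 and -0.82, and by -0.69, -0.12 and -0.67. Long members were not all low there: in blank replicate 3, Col7a1, with 10287 exon bases, was the second highest of the 12 libraries, and Col12a1, with 15228, was at its lowest.

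**Figure D5:**
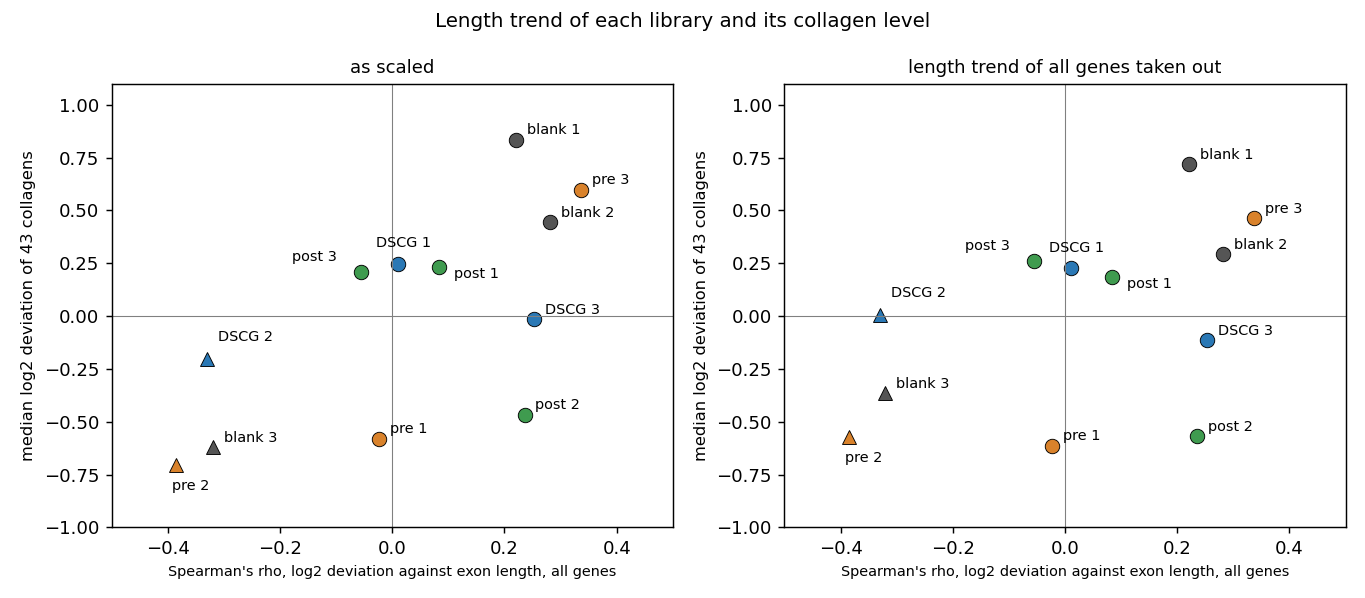
Median log2 deviation of the 43 collagen chain genes (y) against the length trend over all genes (x, Spearman's rho) in each of the 12 libraries, before (left) and after (right) the trend was taken out. Triangles are the 3 libraries with rho under -0.3; pre-MCS-01 replicate 1 and post-MCS-01 replicate 2 are low in collagen in both panels without a negative trend of that size.

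Taking the length trend out as an offset gave medians over the collagen genes of -0.44, -0.36 and -0.23 for pre-MCS-01, post-MCS-01 and DSCG against blank, and leaving out the 3 libraries gave -0.47, -0.67 and -0.40. Neither called a collagen gene in any comparison. Pre-MCS-01 against post-MCS-01 went from -0.11 to -0.14 with the offset and to 0.15 without the 3 libraries, a change of sign.

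Genes that make, trim, cross-link and bind collagen were counted for 42 members of a list, and 40 were tested. None passed an adjusted p of 0.05 in edgeR in any comparison. Log2 differences below 0 were found in 37 of 40 for pre-MCS-01 against blank, 30 for post-MCS-01, 34 for DSCG, 32 for pre-MCS-01 against post-MCS-01, 20 for post-MCS-01 against DSCG and 32 for pre-MCS-01 against DSCG. Without blank replicate 1 the first 3 counts were 29, 14 and 17, and the medians over the list were -0.12, 0.11 and 0.07 in place of -0.32, -0.14 and -0.22. Serpinh1, the collagen chaperone HSP47, stood at 1032, 571 and 409 CPM in blank, 716, 573 and 498 in DSCG, 257, 369 and 758 in pre-MCS-01 and 536, 265 and 789 in post-MCS-01 libraries. It was highest in blank replicate 1 and lowest in pre-MCS-01 replicate 1 and post-MCS-01 replicate 2, 2 of the libraries low in type I collagen. Its difference for pre-MCS-01 against blank was -0.54 ± 0.48 (adjusted p = 0.792, edgeR).

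Lox, which starts the cross-linking of fibrils, stood at 225, 244 and 62.9 CPM in blank, 174, 61.0 and 129.6 in DSCG, 100.3, 47.9 and 206 in pre-MCS-01 and 196, 132 and 271 in post-MCS-01 libraries. DSCG replicate 2, blank replicate 3 and pre-MCS-01 replicate 2 were the 3 lowest, and all groups overlapped. Adamts2, which removes the amino-terminal propeptide, gave -1.06 ± 0.48 for pre-MCS-01 against blank (adjusted p = 0.688), Pcolce, an enhancer of the other propeptide's removal, -0.57 ± 0.43 and Lox -0.59 ± 0.59. The prolyl hydroxylases P4ha1, P4ha2 and P4ha3, which stabilise the triple helix, gave -0.21 ± 0.29, -0.43 ± 0.38 and 0.11 ± 0.75 in that comparison. Plod2, the lysyl hydroxylase of telopeptide cross-links, gave -1.19 ± 0.47 for post-MCS-01 against DSCG (adjusted p = 0.349, edgeR).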

How the data were processed

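Bulk RNA from 12 wounds was sequenced, and the values used are raw counts of reads per gene, 1 table per library, deposited by the authors. The submitters' processing notes name FastQC, TopHat2, Bowtie2, HTSeq, limma and the build mm10. Neither strand setting nor annotation is given in the sources used here, so reads of overlapping or antisense genes cannot be told apart. HTSeq's summary lines, which name no gene, stayed out of totals and tests: 4.34% to 6.81% without a feature, 17.2% to 23.4% not unique and 0.956% to 1.35% ambiguous.

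Counts were fitted in all 4 groups together with edgeR 4.0.16 (R 4.3.3; filterByExpr, TMM, quasi-likelihood test), and calls were made at 0.05 after Benjamini-Hochberg adjustment across the 16267 genes tested. Treatment was the only term. CPM are counts brought to a common TMM-scaled total, and within-group SDs are of log2 CPM with a prior count of 2. A count of 0 allows 3 counts, which covers counting error only. Exon length and positions came from GENCODE M21 (GRCm38), matched by symbol for 94.6% of genes, and promoter windows from a RefSeq table. The length trend is a lowess curve (span 0.3) of each library's deviation on log exon length. On counts simulated for post-MCS-01 against blank over 16116 genes, the fit recovered 10.2% of 2-fold, 81.6% of 4-fold, 98.0% of 8-fold and 100% of 16-fold changes. The simulation gave every gene the same relative spread between mice. Collagen genes of at least 10 CPM had a median within-group SD of 0.777, against 0.340 over all genes of that level. The recovered shares therefore do not carry over to the collagen genes. Alternatives were other scalings, no low-count filter, DESeq2 1.42.0, limma-voom (limma 3.58.1) with and without quality weights, fits of 2 groups alone, 2 length corrections, leaving out 3 libraries, leaving out each library, and the longest transcript as the length.

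Named with values are the 5 members with the smallest p in each comparison, the 2 with the highest mean CPM in each class, and a set list of major skin collagens. The members, classes, marker and pathway lists were chosen with earlier results of these data known. No 2 libraries held identical counts.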

Additional observations from a re-analysis of the deposited data

How the results depend on the processing

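No paired analysis was possible because each label names a different mouse and the replicate numbers were given in accession order. In edgeR none of the 43 collagen genes passed an adjusted p of 0.05 with TMM, and the count moved under these settings: limma-voom with quality weights called 12 in pre-MCS-01 against blank, 5 in post-MCS-01 against blank, 15 in pre-MCS-01 against post-MCS-01 and 10 in the joint test. DESeq2 called 1, 1, 2 and 2 in post-MCS-01 against blank, pre-MCS-01 against post-MCS-01, post-MCS-01 against DSCG and the joint test, and the fit of 2 groups alone 1 and 1 in the first of these and the second. Leaving out each library called 0 to 1 in post-MCS-01 against DSCG. The median over the collagen genes for pre-MCS-01 against post-MCS-01 was -0.88 with quality weights and -0.82 to 0.19 leaving out each library, for post-MCS-01 against DSCG -0.41 with the length covariate and -0.21 to 0.20, and for pre-MCS-01 against DSCG -0.84 to 0.054. Against blank it ran from -1.12 to -0.07 (pre-MCS-01), -0.68 to 0.07 (post-MCS-01) and -0.54 to 0.03 (DSCG). The difference of Col1a1 ran from -1.98 to 0.11, -0.62 to 0.34 and -0.91 to 0.23 in the same 3 comparisons, and that of Col3a1 from -1.73 to 0.20, -0.72 to 0.41 and -1.09 to 0.33. With limma-voom, Col1a1 and Col3a1 stood at 0.014 and 0.077 for post-MCS-01 against blank. The cause of these changes was not tested. Of the values recomputed, 1055 were rated the same, 15 moved, 20 stronger and 9 reversed in sign. A median was rated the same if it shifted by no more than its spread between mice. That spread was 0.32 to 0.74 by comparison, so a median rated the same can still have crossed 0. Blank replicate 3, with 3.84e+06 gene counts, limits what can be seen for members under 1 CPM.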
